A study of Homo sapiens with 30 samples.

Results

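The regions described here are those open in anterior neural ectoderm on day 2 (aNE), in the same lineage after culture in hindbrain medium to day 4 (aNE_H), or in both. On chromosomes 1 to 22 the peaks of all 10 deposited lists were merged into regions wherever they shared 1 bp or more. Each list counted as open at the regions that held one of its peaks. Of 476170 merged regions in all, 222909 were open in aNE or aNE_H. A region was gained where only aNE_H of the pair was open, lost where only aNE was open, and kept where both were.

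All lists came from OmniATAC-seq, an assay in which the Tn5 transposase cuts accessible DNA, on wild-type H1 human embryonic stem cells, an established line. The labels give 3 biological replicates of 50000 cells for each of the 10 groups, and 1 peak list was deposited per group. Every group other than the undifferentiated cells (hPSC, day 0) passed through definitive ectoderm (DE, day 1), made with the TGF-beta inhibitor A8301, the MEK inhibitor Trametinib, the WNT secretion inhibitor C59 and the BMP receptor inhibitor LDN193189. For aNE, DE cells were replated on day 1 with A8301, LDN193189, C59 and the ROCK inhibitor Thiazovivin. Posterior neural ectoderm (pNE) received the retinoic acid receptor agonist TTNPB, FGF2 and the tankyrase inhibitor XAV939 in place of C59. On day 2 either population was moved to telencephalon, midbrain or hindbrain medium and harvested on day 4, which gave aNE_T, aNE_M, aNE_H and pNE_T, pNE_M, pNE_H. The composition of the hindbrain medium is not given in the sources used here. Plating density was 37500 cells per square cm for cultures ending on day 2 and 75000 for aNE cultures kept longer, so density, day and medium cannot be told apart between aNE and aNE_H. The pNE cultures kept longer were plated at 150000, so origin and density cannot be told apart between aNE_H and pNE_H. The comparison asks how open chromatin differs between an anterior ectoderm and its descendants in a medium meant for hindbrain.

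The neural plate is patterned along its length by WNT, FGF and retinoic acid signals, which favour posterior fates where they are high. Forebrain and midbrain progenitors are marked by OTX2, SIX3, HESX1 and RAX, the midbrain-hindbrain boundary by EN1, EN2, PAX2, FGF8 and WNT1, and hindbrain segments (rhombomeres) by EGR2 and the 3′ HOX genes. Open chromatin marks DNA where factors can bind, at promoters and at distal enhancers, and does not itself measure expression.

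Few promoter windows differed between aNE and aNE_H. RefSeq promoter windows (250 bases before to 50 after a start site, GRCh38.p14) matched 15101 protein-coding genes on chromosomes 1 to 22, with 21156 windows, since many genes have several starts. A peak of the aNE_H list but none of aNE lay over 575 windows (2.72%) of 530 genes, and the reverse held for 364 windows (1.72%) of 345 genes. Both lists had a peak at 15056 windows (71.2%). When only the widest peaks were used, so that all lists were of equal size, 479 windows were gained, 449 lost and 14971 kept. The excess of gained over lost windows was then smaller. Sequences of 6 windows are printed below because they belong to a HOX gene, a pluripotency gene, a surface ectoderm factor, a Notch target and 2 neural genes. Each is the 250 bases upstream of the start, 5′ to 3′ on the gene's strand, and capitals mark letters of the motifs defined below. Positions on hg38 are chr17:48531012-48531261 (minus strand) for HOXB1, chr12:7789152-7789401 (plus) for NANOG, chr10:8049604-8049853 (plus) for GATA3, chr1:2530264-2530513 (minus) for HES5, chr4:16076119-16076368 (minus) for PROM1 and chr1:50109583-50109832 (plus) for ELAVL4. The GATA3, PROM1 and ELAVL4 windows precede 1 of several annotated starts of the gene.
HOXB1 promoter, lost: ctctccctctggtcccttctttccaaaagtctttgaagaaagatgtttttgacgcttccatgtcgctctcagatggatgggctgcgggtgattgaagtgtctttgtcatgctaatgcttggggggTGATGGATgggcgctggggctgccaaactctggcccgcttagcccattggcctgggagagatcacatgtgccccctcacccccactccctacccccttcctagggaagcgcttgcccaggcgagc
NANOG promoter, lost: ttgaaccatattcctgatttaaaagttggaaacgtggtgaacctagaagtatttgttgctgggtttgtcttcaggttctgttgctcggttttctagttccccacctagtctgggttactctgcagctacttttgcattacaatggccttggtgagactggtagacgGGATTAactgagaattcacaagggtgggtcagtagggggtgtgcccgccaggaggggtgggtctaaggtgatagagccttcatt
GATA3 promoter, lost: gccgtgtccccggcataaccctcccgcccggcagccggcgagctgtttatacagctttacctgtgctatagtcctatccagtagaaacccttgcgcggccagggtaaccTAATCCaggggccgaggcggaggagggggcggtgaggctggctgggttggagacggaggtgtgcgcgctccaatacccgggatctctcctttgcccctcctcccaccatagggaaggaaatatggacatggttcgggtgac
HES5 promoter, lost: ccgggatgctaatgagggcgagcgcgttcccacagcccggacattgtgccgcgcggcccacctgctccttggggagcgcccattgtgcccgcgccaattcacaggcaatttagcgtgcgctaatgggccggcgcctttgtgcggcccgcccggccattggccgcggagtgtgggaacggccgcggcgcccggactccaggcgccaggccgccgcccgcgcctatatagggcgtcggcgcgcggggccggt
PROM1 promoter, gained: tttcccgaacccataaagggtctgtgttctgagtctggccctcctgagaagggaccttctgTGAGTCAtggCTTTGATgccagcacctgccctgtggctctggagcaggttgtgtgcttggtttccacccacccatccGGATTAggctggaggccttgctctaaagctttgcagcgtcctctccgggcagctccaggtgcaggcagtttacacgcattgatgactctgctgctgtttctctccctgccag
ELAVL4 promoter, gained: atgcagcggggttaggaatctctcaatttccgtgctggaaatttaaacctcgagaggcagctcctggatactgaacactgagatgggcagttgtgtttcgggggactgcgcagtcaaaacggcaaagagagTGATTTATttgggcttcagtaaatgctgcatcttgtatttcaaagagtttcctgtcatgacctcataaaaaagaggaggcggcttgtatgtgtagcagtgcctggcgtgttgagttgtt

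HOXB1, the earliest rhombomere 4 HOX gene, had its window open in hPSC, DE, aNE, pNE and all 3 pNE-derived day 4 lists, and in none of aNE_T, aNE_M and aNE_H. The NANOG window, of a core pluripotency factor, was open in hPSC, DE, aNE, pNE and aNE_T and in no other list. GATA3, a surface ectoderm factor, had the printed window open in DE and aNE alone. Of its 6 windows 2 were lost and 3 were kept. The other lost window was also open in aNE_M, pNE_T, pNE_M and pNE_H. The window of HES5, a Notch target in neural progenitors, was open in every list except aNE_H. PROM1 encodes prominin, a progenitor surface protein, and the window shown was open in hPSC, DE, aNE_M, aNE_H, pNE_T and pNE_H. The other 3 of the 4 PROM1 windows were kept. For ELAVL4, a neuronal RNA-binding protein, 3 of 7 windows were gained, and the one shown was open in DE, pNE, aNE_M, aNE_H, pNE_M and pNE_H. Another of them had no peak in either list at equal size. The ELAVL4 gene body with 50 kb on either side had 3 gained and 4 lost regions, and 2 and 4 at equal size.

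Further windows lost included 2 of CYP26A1, which degrades retinoic acid, and 2 of STRA6, a retinol transporter. Also lost was 1 window each of WNT8B, WNT5B, HOXA3, NKX2-1, OLIG3, LMX1B, NR2E1, PBX3, GATA2, CDH7 and ROBO3. Those gained included 1 each of the guidance receptor ROBO2, the nuclear receptor NR2F2, the Notch modifier LFNG, FGF14, TCF7L2 and BMP4. PAX6 had 1 window gained and 1 lost among 9.

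Letters of 9 motifs were searched on both strands of the full 300 bases. Letters used by HOX with PBX (TGATNNAT) lay in 6.43% of gained, 5.49% of lost and 5.23% of all windows. The OTX core (GGATTA) lay in 7.3% of gained and 10.7% of lost windows, against 5.48% of all. TCF/LEF letters (ATCAAAG) lay in 1.91% of gained, 3.02% of lost and 1.93% of all, and those of AP-1 (TGANTCA) in 11%, 9.62% and 6.08%. TEAD letters (GGAATG) lay in 17.2%, 17.6% and 12.2%, SOX letters (ATTGTT) in 11.5%, 8.52% and 7.45%, and the POU octamer (ATTTGCAT) in 1.91%, 1.1% and 1.62%. AGGTCA direct repeats spaced by 5 bases or by 2, the form bound by retinoic acid receptors, were each found in 1 window of all and in none gained or lost. Letters of HOX with PBX and of AP-1 can overlap. Median GC content was 53.7% in gained, 57.5% in lost, 66% in kept and 48% in closed windows, so a share in gained or lost windows stands beside sequences of another base composition, and its part in these shares was not tested.

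From aNE to aNE_H, 70659 regions were gained, 37739 were lost and 114511 were kept. Of the aNE regions 75.2% were kept, and of the aNE_H regions 38.2% were gained. The Jaccard index, the kept share of all regions open in either list, was 0.514. The lists carry no value per replicate, score or read count, so no difference below has a replicate error or a test. What is compared is a pair of lists rather than the conditions behind them, and the sequencing depth is not known. In bulk cells a lost peak may be a site closed in every cell or open in fewer cells, which cannot be told apart.

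List size bears on this excess of gains. The aNE list was the shortest of the 10 with 162041 peaks on chromosomes 1 to 22, and aNE_H had 196961. When only the widest 162041 peaks of each list were used, 48562 regions were gained, 47093 lost and 105188 kept, with a Jaccard index of 0.524. Gains and losses were then nearly balanced, which lists of equal length bring about by construction. The regions open were 152281 in aNE and 153750 in aNE_H, so this balance is not a result about the cells. Of the aNE regions 69.1% were kept.

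Beside it, the same aNE list against aNE_T gave 52364 gained and 23147 lost regions, and against aNE_M it gave 74499 and 27939. These 2 comparisons share the aNE list with aNE_H and are not independent of it. At equal size the losses were 47093 for aNE_H, 41013 for aNE_M and 32098 for aNE_T, and the kept shares of aNE were 69.1%, 73.1% and 78.9%. The posterior counterpart, pNE to pNE_H, gained 130239 and lost 26287 regions as deposited, and 49988 and 44507 at equal size.

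**Figure D1:**
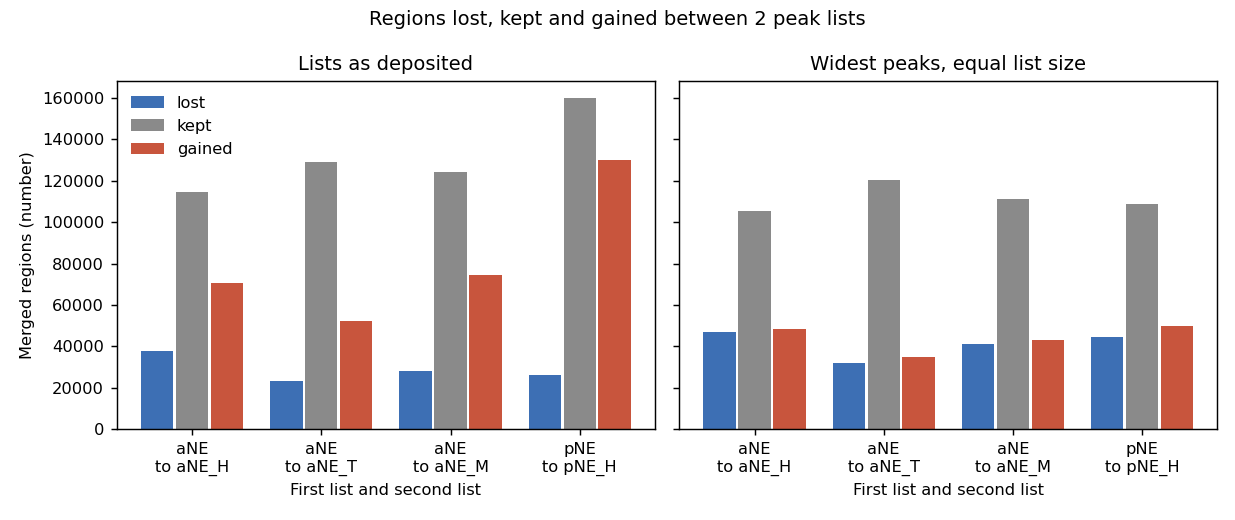
Bars give the number of merged regions lost (blue), kept (grey) and gained (red) for each pair of lists, as deposited at left and with the widest 162041 peaks of each list at right. From aNE to aNE_H the gained bar of 70659 is taller than the lost bar of 37739 at left, and the bars stand at 48562 and 47093 at right.

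Gained and lost peaks were narrow. The widest aNE_H peak of a gained region had a median width of 203 bp and that of a lost region in aNE 206 bp, against 386 bp (aNE) and 397 bp (aNE_H) in kept regions. Gained regions held 21.7% of the bases covered by aNE_H peaks, and lost regions 13.7% of those covered by aNE peaks. Within kept regions the median width ratio of aNE_H to aNE was 1.01, with 8.64% at least 2 times wider and 6.73% at least 2 times narrower in aNE_H.

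Most changes were away from gene ends. Of gained regions 7.82% lay within 1 kb of the end of a gene, of lost regions 9.34%, and of kept regions 21.7%. Gains exceeded losses most in gene-poor DNA: per lost region there were 3.64 gained in 1 Mb bins without a protein-coding gene, 2.25 with 1 to 4 genes, 1.67 with 5 to 9 and 1.4 with 10 or more. At equal size these ratios were 1.99, 1.25, 0.913 and 0.77, so the order over the 4 bins was the same and the gene-rich bins had more losses than gains. Among chromosomes the ratio ran from 1.32 on chromosome 17 to 2.59 on chromosome 13.

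Distances of single regions are to the nearest end of any annotated gene, which need not be the nearest protein-coding one. The widest gained peaks more than 1 kb from a gene end measured 1576 bp at chr13:54091574-54093149, at a distance of 31060 bp, 1482 bp at chr13:87999903-88001384, at 106197 bp, and 1475 bp at chr20:63173531-63175005, at 3495 bp. None of the 3 lay inside a protein-coding gene, and each was open in at least 8 of the 10 lists. The nearest protein-coding genes of the last 2 were SLITRK5, a synaptic adhesion protein, and YTHDF1, a reader of methylated RNA. The widest lost peaks measured 1670 bp at chr14:85222471-85224140, 1608 bp at chr18:35826621-35828228 and 1500 bp at chr10:121552983-121554482. The first 2 were 27731 and 13368 bp from a gene end, with FLRT2, an adhesion protein, and GALNT1, a glycosyltransferase, as nearest protein-coding genes. The third lay inside FGFR2, an FGF receptor, and was open in every list except aNE_H. Regions with 3 separate aNE_H peaks and none in aNE lay in LRRC4C (chr11:41056818-41058516), in MSI1, an RNA-binding protein of neural stem cells (chr12:120341746-120343162), and 40909 bp from TP63, an epithelial p53 family factor (chr3:189554315-189555837).

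Lost regions were largely sites already open before day 2, though less often so than kept regions. DE was open at 75.3% of lost and 94% of kept regions, and hPSC at 51.7% and 86.1%. Of lost regions 80.2% were open in at least 1 of these 2 lists, and of kept regions 96.1%. At equal size the last 2 shares were 67.2% and 91.8%. Gained regions were open in DE at 30.2% and in hPSC at 26.4%, and 60.4% were open in neither. Regions open in neither aNE nor aNE_H, which are defined by the other lists, were open in DE at 26% and in hPSC at 22.2%.

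Sites gained in aNE_H were often open in the posterior ectoderm. The pNE list was open at 52.2% of gained and 44% of lost regions, against 95.4% of kept regions and 9.37% of regions open in neither. Over all 476170 merged regions pNE was open at 186425, so the gained share stands closer to the whole than to regions open in neither. Of the gained regions 26.1% were open in pNE and in neither hPSC nor DE, and 34.3% in none of the 3. At equal size pNE was open at 46.5% of gained regions and 37% of lost ones, and DE at 16% and 56.9%.

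Among day 4 lists, pNE_H was open at 65.8% of gained regions, aNE_M at 62.1%, pNE_M at 44.7%, pNE_T at 32.8% and aNE_T at 32.2%. The pNE_H list is the longest, with 302355 peaks, and was open at 46.9% of regions open in neither aNE nor aNE_H. At equal size the order changed: aNE_M was open at 53.5% of gained regions, pNE at 46.5%, pNE_H at 40.7%, pNE_M at 38.2%, aNE_T at 27.6% and pNE_T at 26.3%. Lost regions remained open in aNE_T at 57.8% and in aNE_M at 37.5%, or 51% and 28.9% at equal size. In all, 8683 gained regions (12.3%) were open in aNE_H alone and 2431 lost regions (6.44%) in aNE alone. At equal size these shares were 19.1% and 12.8%.

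**Figure D2:**
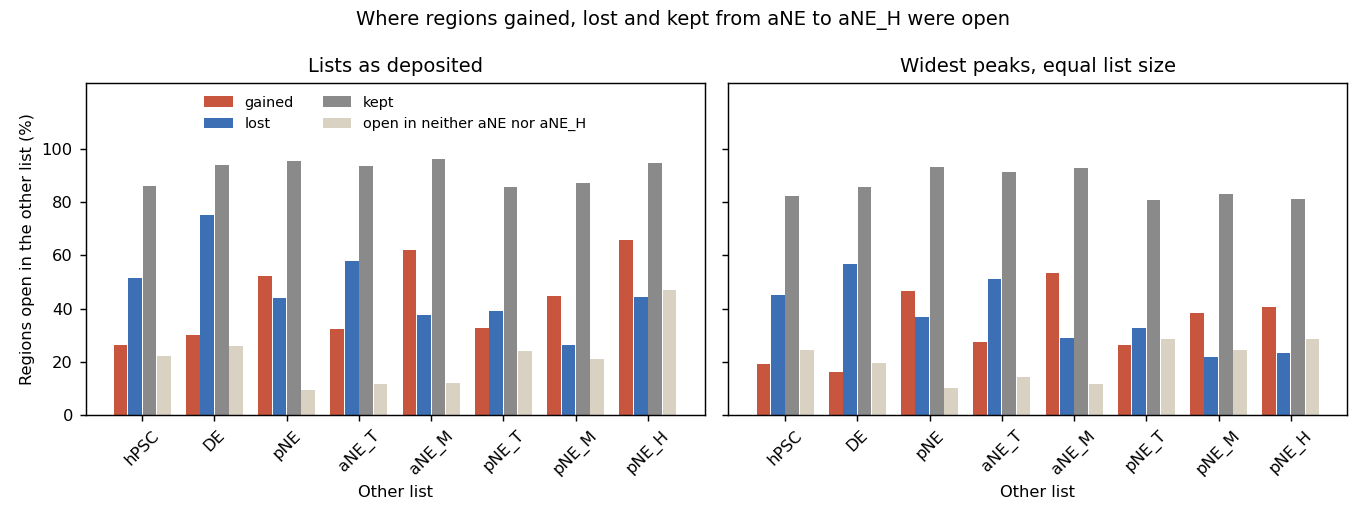
Bars give the percent of regions gained (red), lost (blue), kept (grey) and open in neither aNE nor aNE_H (beige) that were open in each other list, as deposited at left and at equal list size at right. DE stands at 75.3% of lost and 30.2% of gained regions, and aNE_M at 37.5% of lost and 62.1% of gained regions.

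Each region was also given to the protein-coding gene with the nearest end, a count that depends on the length of a gene and on how far its neighbours are. The most gained regions fell to GPC5, TENM3 and PCDH9. GPC5, a cell surface heparan sulfate proteoglycan, had 121 gained and 12 lost. TENM3, a teneurin that matches synaptic partners, had 110 and 44, and PCDH9, a protocadherin, 102 and 15. Next came AUTS2 (89 gained, 40 lost), LRRC4C, a netrin ligand (88 and 20), CSMD1 (85 and 14), the SLIT receptor ROBO1 (83 and 21), the receptor phosphatase PTPRD (82 and 21), GBE1, which branches glycogen (79 and 13), and the ephrin EFNA5 (79 and 22). The genes with the largest excess of gains also included BRINP3 (71 and 7), CSMD3 (70 and 8) and the gene model LOC124900173 (77 and 9). At equal size GPC5 kept 86 gained and 15 lost, PCDH9 70 and 18, TENM3 82 and 54.

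Most lost regions by nearest end belonged to RBFOX1, a neuronal splicing factor, with 43 gained and 64 lost. TENM3 with 44 lost and AUTS2 with 40 had more gains than losses. NTM had 40 gained and 38 lost (22 and 45 at equal size), DPP6 32 and 35, TENM4 65 and 33, RORA, a nuclear receptor, 22 and 31, GATA3 27 and 31, ADGRL2 64 and 31, and TENM2 71 and 31. After RBFOX1 the largest excess of losses, 16 regions each, was at PTPN13, a tyrosine phosphatase, with 1 gained and 17 lost, and at SNURF, in the imprinted Prader-Willi region, with 0 and 16. The next named by this measure included PLPPR1, a neuronal membrane protein, with 0 and 11. MEGF11 had 10 gained and 22 lost, MSRA 5 and 17, ABCC4 11 and 22, SHISA9 6 and 17, and ANK2 16 and 26.

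Within 50 kb of SNURF the lists held 16 peaks in hPSC, 17 in DE, 14 in aNE, 5 in pNE, 9 in aNE_T, 6 in aNE_M, 4 in aNE_H, 3 in pNE_T, 7 in pNE_M and 6 in pNE_H. The hPSC, DE and aNE counts were all above those of the other 7 lists. PTPN13 had 25 peaks in aNE and 28 in aNE_T against 13 in aNE_M, 14 in aNE_H, 15 in pNE and 28 in pNE_H. Per 100 kb of gene, the highest gains fell to very short gene models such as TNP1 (607 bp, a sperm chromatin protein, 30 gained) and PYDC2 (294 bp, 13 gained), where the length and not the count sets the rank, and the other 8 of the 10 were LOC gene models with 10 to 38 gained.

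For genes of known pathways, regions were counted in a window of the gene body with 50 kb on either side. A gene is called higher where it had at least 3 more gained than lost regions and lower where it had at least 3 more lost. Over all 19126 protein-coding genes 28.5% were higher and 7.91% lower as deposited. At equal list size 10.6% were higher and 21.6% lower, so a list is read against both. The aNE list is the shortest and was not cut, so equal size removed aNE_H peaks and no aNE peaks. All 1513 genes lower as deposited were also lower at equal size, so a lower call that persists there adds no support. Long genes hold more regions: of 303 genes of 500 kb or more, 266 were higher, and 147 at equal size. Their median net was 13 regions, and 2 at equal size. RARB, SOX5, SOX6, TSHZ2 and FGF14, given below, are of this length, as are many axon guidance and adhesion genes. Neighbouring genes share regions, so members of a cluster are not separate evidence.

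**Figure D3:**
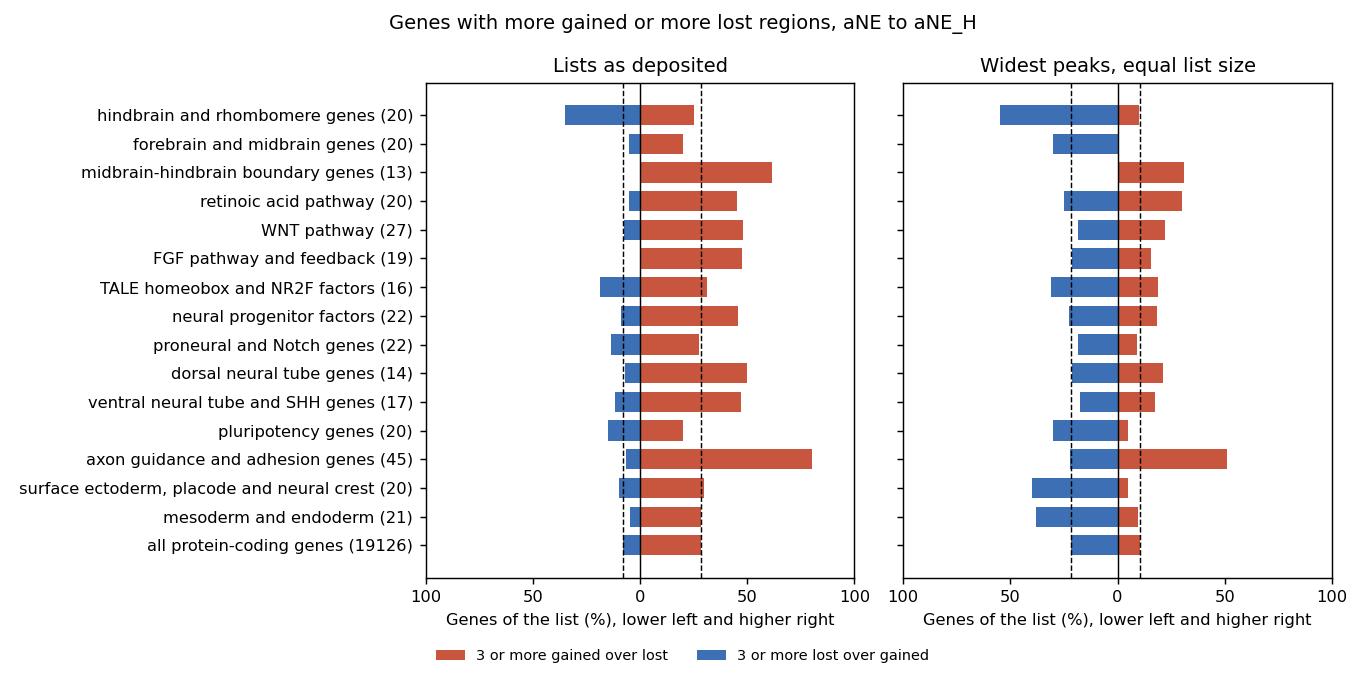
Bars show the percent of each gene list (number of genes in brackets) that was higher (red, right) or lower (blue, left) from aNE to aNE_H, as deposited and at equal size, and dashed lines mark the share over all protein-coding genes. Axon guidance and adhesion genes reach 80% higher at left and 51.1% at right, while hindbrain and rhombomere genes reach 35% lower at left and 55% at right.

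In the WNT pathway the largest net gains as deposited were at LEF1, LGR5, AXIN2 and WNT7B, and the 2 lower genes were the ligands WNT3 and WNT8B. At equal size FZD5, RSPO1 and LRP6 were lower too, with a net of -5, -4 and -3. Of 27 genes 13 were higher and 2 lower as deposited, 6 and 5 at equal size, with a median net of 2 regions against 1 over all genes, and of 0 against -1 at equal size. LGR5, a receptor for R-spondins and a WNT target, had 13 gained, 0 lost and 8 kept regions. Its window held 12 peaks in hPSC, 15 in DE, 9 in aNE, 19 in pNE, 18 in aNE_T, 22 in aNE_M, 21 in aNE_H, 25 in pNE_T, 26 in pNE_M and 30 in pNE_H. The aNE count was the lowest of the 10, and every day 4 list was above it. At equal size LGR5 still had 9 gained and 0 lost.

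AXIN2, the scaffold of the beta-catenin destruction complex and a direct WNT target, had 9 gained and 0 lost regions under both list sizes. Its peaks numbered 24 in hPSC, 23 in DE, 17 in aNE, 21 in pNE, 19 in aNE_T, 24 in aNE_M, 25 in aNE_H, 17 in pNE_T, 28 in pNE_M and 30 in pNE_H. The widest gained peaks there were 945 bp in the region chr17:65592706-65593650, open in aNE_M, aNE_H and pNE_M, and 659 bp in chr17:65519445-65520159, open in DE, pNE and the midbrain and hindbrain lists of both lineages and in pNE_T. Both lie outside the AXIN2 gene body. From aNE to aNE_T the AXIN2 window had 4 gained and 1 lost, and from aNE to aNE_M 8 and 0. LGR5 had 8 and 0 in aNE_T and 14 and 0 in aNE_M.

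LEF1, a nuclear effector of beta-catenin, had 18 gained and 3 lost regions, and 10 and 4 at equal size. It held 24 peaks in aNE and 36 in aNE_H. The ligand WNT7B had 11 gained and 2 lost (8 and 3 at equal size), and the transcription factor TCF7L1 9 and 4 (9 and 6). The reverse held for the ligands WNT3, with 1 gained and 7 lost, and WNT8B, with 1 and 4. WNT3 had 21 peaks in aNE and 12 in aNE_H, the lowest of the 10 lists, beside 17 in aNE_T and 16 in aNE_M.

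**Figure D4:**
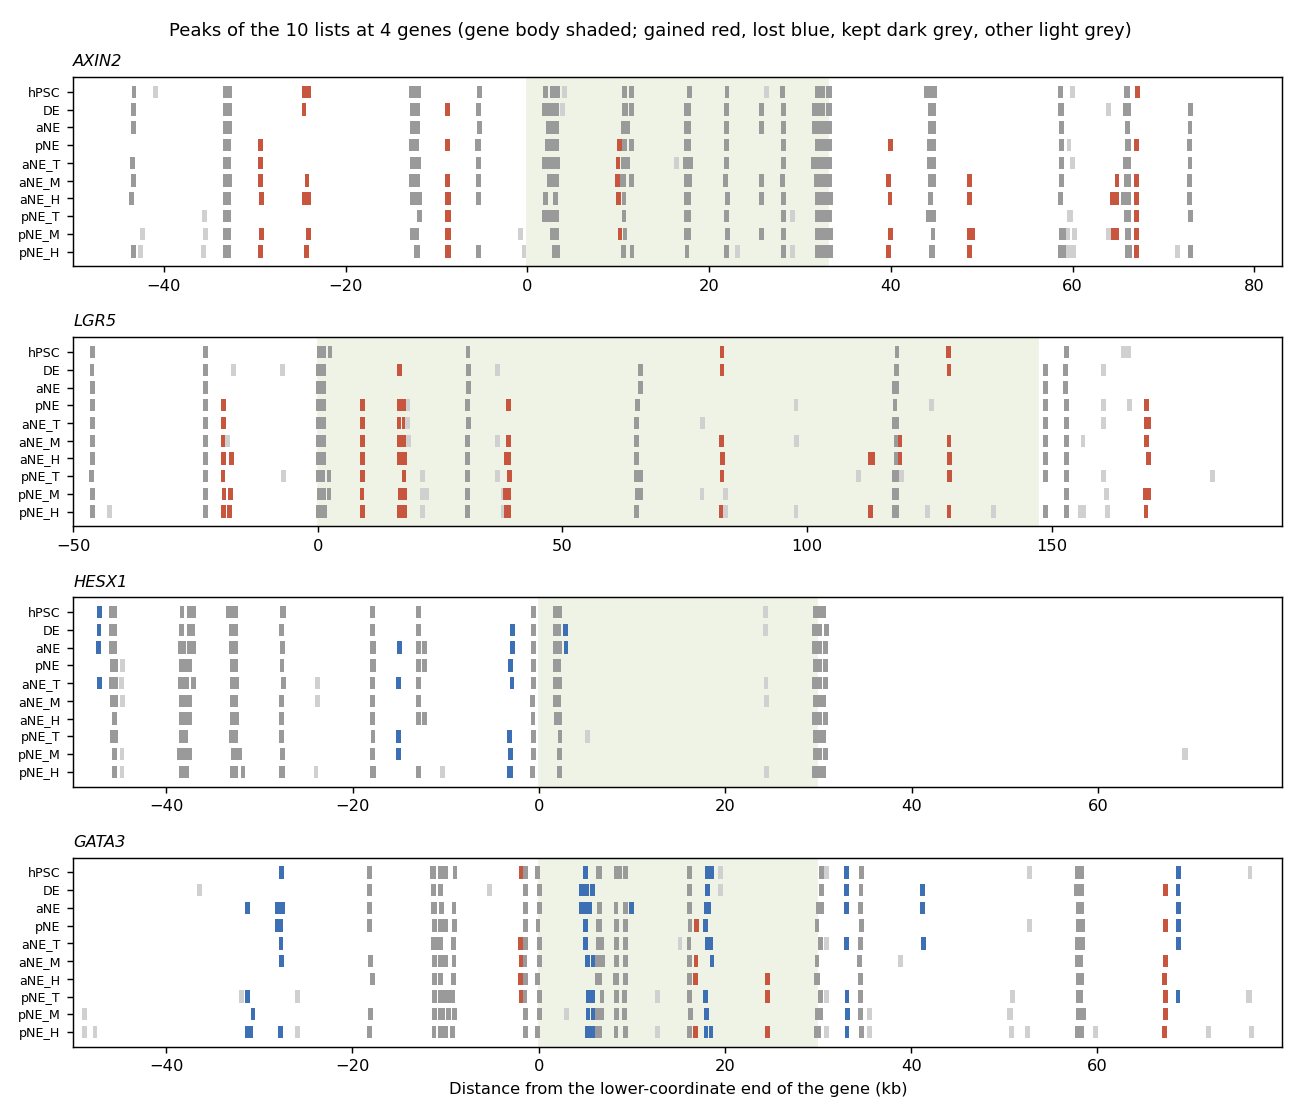
Rows are the 10 lists and marks are peaks along the AXIN2, LGR5, HESX1 and GATA3 genes with 50 kb on each side, in kb from the lower-coordinate end of the gene, and very short peaks are drawn wider so that they show. Regions gained from aNE to aNE_H are red, lost ones blue, kept ones dark grey and others light grey, and AXIN2 and LGR5 show 9 and 13 gained and 0 lost regions.

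Midbrain-hindbrain boundary genes had 8 of 13 higher and 0 lower, and 4 and 0 at equal size. PAX2, needed for the boundary and for inner ear and kidney, had 22 gained and 6 lost regions, with 31 peaks in aNE and 46 in aNE_H, beside 36 in aNE_T, 43 in aNE_M and 50 in pNE_H. At equal size it had 16 and 8. SP5, a WNT-induced transcription factor, had 11 and 2 (7 and 2), PAX8 10 and 1 (7 and 1) and CNPY1, an FGF signalling modifier near EN2, 9 and 4 (8 and 4). EN2 itself had 3 and 0, and EN1 9 and 6. EN1 and EN2 were not called at equal size (6 and 6, and 2 and 0). Members with a net under 3 as deposited included the signals FGF8 with 2 gained and 2 lost, FGF17 with 5 and 3 and WNT1 with 1 and 2, and the factors PAX5 with 10 and 9 and IRX2 with 2 and 2.

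Hindbrain and rhombomere genes did not share one direction. Of 20 genes 5 were higher and 7 lower as deposited, and 2 and 11 at equal size, with a median net of 0 and -3. By nearest gene end, which gives each region to 1 gene, 5 were higher and 1 lower, and over all genes the lower calls numbered 682 in place of 1513. EGR2, which marks rhombomeres 3 and 5, was higher under both list sizes. It had 5 gained and 1 lost, with 10 peaks in aNE and 14 in aNE_H. IRX3 had 7 and 3 (5 and 3 at equal size) and the guidance cue NTN1 12 and 5, though NTN1 had 7 and 8 at equal size.

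Of the 10 HOX genes in the list 8 had more losses than gains as deposited. HOXA4 had 0 gained and 5 lost, HOXA3 1 and 5, HOXD4 1 and 5, HOXD3 2 and 5, and HOXB2 and HOXB3 4 and 7 each. HOXA2 had 1 and 3, while HOXB1 had 7 gained and 7 lost and HOXB4 4 and 4. The HOXA4 window held 30 peaks in hPSC, 28 in DE, 26 in aNE, 27 in pNE, 25 in aNE_T, 25 in aNE_M, 20 in aNE_H, 29 in pNE_T, 36 in pNE_M and 38 in pNE_H. Thus aNE_H was the lowest and pNE_H the highest of the 10 lists at HOXA4. HOXD4 had 22 peaks in aNE_H against 23 in aNE and aNE_T and 28 in aNE_M, and the pNE-derived lists had 28 (pNE_T), 31 (pNE_M) and 39 (pNE_H). GBX1, a hindbrain homeobox gene, had 0 gained and 4 lost.

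In the same medium, but from cultures plated at 150000 in place of 75000 cells per square cm, pNE moved the other way at these genes. From pNE to pNE_H the HOXA4 window had 16 gained and 3 lost regions, HOXA3 16 and 4, HOXB2 16 and 3, HOXB3 19 and 3, HOXD3 20 and 0 and HOXD4 19 and 0. At equal size the net was 4, 3, 8, 7, 3 and 3 for these 6 genes in pNE to pNE_H, against -5, -6, -5, -6, -3 and -4 in aNE to aNE_H. PAX2 had 15 gained and 5 lost in pNE to pNE_H.

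**Figure D5:**
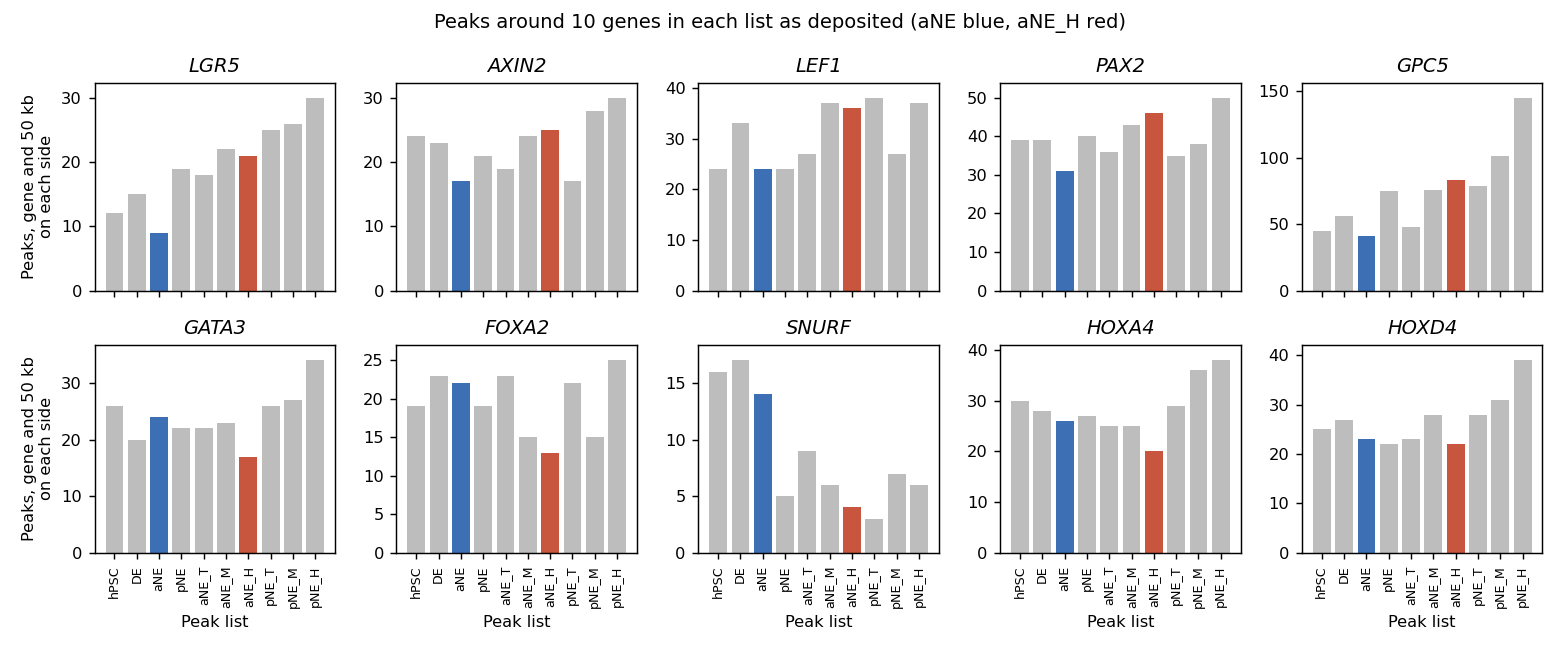
Bars count the peaks of each list as deposited in the window of a gene and 50 kb on each side, for 10 genes, with aNE in blue and aNE_H in red. LGR5 stands at 9 in aNE and 21 in aNE_H, HOXA4 at 26 and 20, and SNURF at 14 and 4.

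Forebrain and midbrain genes had 4 of 20 higher and 1 lower as deposited, and 0 and 6 at equal size. HESX1, an early forebrain homeobox repressor, had 0 gained and 4 lost, with 17 peaks in both aNE and aNE_T and 12 in both aNE_M and aNE_H. Of its 4 lost regions 3 had been open in DE, and the exception was chr3:57182481-57182748. RAX, the eye field gene, had 0 and 2. OTX2 had 5 gained and 1 lost as deposited but 2 and 4 at equal size, and SIX3 had 4 and 4. Their promoters stayed open: of the annotated windows both lists had a peak at 1 of 1 for RAX, 2 of 2 for HESX1 and 1 of 2 for OTX2. TCF7L2 had 17 and 13 (9 and 15 at equal size), and EMX1 6 and 2 (4 and 2).

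Retinoic acid pathway genes had 9 of 20 higher and 1 lower, and 6 and 5 at equal size. The receptor RARB, a gene of 769 kb, had 23 gained and 10 lost, a net of 13 as at the median gene of 500 kb or more. The transporter STRA6 had 11 and 4, and RDH10, which makes retinaldehyde, 8 and 1. At equal size RARB had 16 and 14. RARA had 4 and 8 and RXRA 7 and 9. CYP26A1 and its neighbour CYP26C1 had 3 and 3 in windows that overlap. RARB had 39 peaks in aNE and 51 in aNE_H, beside 85 in pNE_T, 81 in pNE_M and 137 in pNE_H.

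FGF genes had 9 of 19 higher and 0 lower, and 3 and 4 at equal size. The intracellular FGF14 had 26 and 6, the inhibitor SPRED1 9 and 1 and the ERK phosphatase DUSP6 7 and 1. IL17RD, a feedback antagonist, had 5 and 7, and FGF2 4 and 6. At equal size SPRED1 had 9 gained and 2 lost and DUSP6 4 and 2.

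Regulators that act beside HOX proteins or pattern the same axis were mixed. Of 16 TALE homeobox, NR2F and related genes 5 were higher and 3 lower, and 3 and 5 at equal size. The zinc finger factor TSHZ2 had 20 gained and 7 lost, NR6A1 20 and 10 (13 and 15 at equal size), TSHZ1 9 and 2, and ZNF703 2 and 7. By nearest gene end ZNF703 had 20 gained and 14 lost, so its direction turned.

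Axon guidance and adhesion genes had 36 of 45 higher and 3 lower as deposited, and 23 and 10 at equal size. Their median length was 386 kb against 24.5 kb over all genes, and the part of length in these counts was not tested. GPC5 had 50 gained and 8 lost, TENM3 61 and 25, GPC6 50 and 14, ROBO2 45 and 10 and the netrin receptor UNC5C 29 and 4. GPC5 held 41 peaks in aNE and 83 in aNE_H, beside 48 in aNE_T and 76 in aNE_M. Smaller genes with few lost regions were the semaphorin SEMA3C with 8 and 0, the cadherin CDH7 with 6 and 0, and CDH6 with 17 and 4. Of 2 CDH7 promoter windows, 1 was kept and 1 was lost, the latter within a merged region open in both lists. UNC5A with 3 and 9 and ROBO3, which lets commissural axons cross, with 1 and 6 went the other way.

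Neural progenitor factors had 10 of 22 higher and 2 lower, and 4 and 5 at equal size. SOX5 had 43 gained and 13 lost, SOX6 21 and 7, and POU3F3, a neural POU factor, 12 and 0 (8 and 3 at equal size). SOX2 and SOX1, which mark the neural plate, had 4 and 4 and 3 and 3. SOX4 had 0 and 4, and HES3 1 and 5. Of 22 proneural and Notch genes 6 were higher and 3 lower, and 2 and 4 at equal size. HES1 had 8 and 3, the neurogenic factor INSM1 7 and 1 and the ligand JAG1 6 and 2 (5 and 6 at equal size), whereas HES5 had 4 and 9 and NEUROD4 2 and 5. HES5 held 12 peaks in aNE_H, the lowest of the 10 lists, against 17 in aNE and aNE_T and 20 in aNE_M.

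Dorsal neural tube genes had 7 of 14 higher and 1 lower (3 and 3 at equal size), with ZNF521 at 24 gained and 10 lost, PAX3 at 12 and 5, LMX1A at 11 and 5, BMP4 at 2 and 4 and WLS, which secretes WNTs, at 4 and 8. Ventral and SHH pathway genes had 8 of 17 higher and 2 lower (3 and 3), with GLI2 at 20 and 11, GLI3 at 18 and 4, the antagonist HHIP at 8 and 0 and NKX6-2 at 1 and 5. At equal size ZNF521 had 13 and 12, LMX1A 6 and 6 and GLI2 16 and 14. By nearest gene end BMP4 had 9 gained and 2 lost, so its direction turned. FOXA2, the floor plate factor, had 0 gained and 6 lost, and the same at equal size, where no aNE peaks were removed. Its peaks numbered 13 in aNE_H and 22 in aNE, beside 23 in aNE_T, 15 in aNE_M and 25 in pNE_H. The FOXA2 region chr20:22626378-22626912 was open in DE and aNE alone.

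Pluripotency genes had 4 of 20 higher and 3 lower, and 1 and 6 at equal size. POU5F1 had 0 gained and 3 lost, with 13 peaks in hPSC, 15 in DE, 7 in aNE and 5 in aNE_H. PRDM14 had 0 and 4 and the DNA methyltransferase DNMT3B 2 and 6. NANOG, whose promoter window was lost, had 5 gained and 2 lost regions in its gene window (5 and 3 at equal size). ZFP42 had 7 and 1, FGF4 6 and 0 and LIN28B 11 and 6, which were 5 and 2, 4 and 3 and 8 and 7 at equal size.

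Markers of other cell types were counted in the same way. Surface ectoderm, placode and neural crest genes had 6 of 20 higher and 2 lower, and 1 and 8 at equal size, with 109 gained and 77 lost regions summed over members. GATA3 had 4 gained and 10 lost, and 1 and 10 at equal size, with 24 peaks in aNE and 17 in aNE_H, the lowest of the 10 lists. KRT8, a simple epithelial keratin, had 1 and 5, EYA1 21 and 6, ETS1 14 and 6 (10 and 10 at equal size) and SNAI2 8 and 2 (4 and 2). Mesoderm and endoderm genes had 6 of 21 higher and 1 lower, and 2 and 8 at equal size, with 77 gained and 58 lost. EOMES had 7 and 0, MEOX1 7 and 2, GATA4 9 and 6 (5 and 9 at equal size) and KDR 1 and 3. By nearest gene end KDR had 9 gained and 5 lost. Peak positions do not measure how many cells of such types a culture held, and their part in the counts above was not tested.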

How the data were processed

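The data were 10 deposited peak lists, 1 per group of 3 OmniATAC-seq libraries, in which the authors gave peak start and end positions and no count, score or p-value. The submitters' processing notes name the build hg38 and the tools FastQC, Bowtie2, MACS2, bedtools and deepTools without their roles. Versions, the peak threshold and how replicates were combined are not given in the sources used here, and each could move the number of narrow peaks. Lists were mapped to groups by population name.

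Lists were read with Python 3.11.15, numpy 2.4.6 and pandas 2.3.3, and plotted with matplotlib 3.10.9. Regions, gains, losses and gene assignments were computed as described in the report, from RefSeq gene positions (GRCh38.p14, 19126 protein-coding genes on chromosomes 1 to 22) and promoter windows, and the code was tested on simulated lists. Gene lists held 317 genes, of which 316 matched. DCX lies on chromosome X. No test was made, since 1 list per group holds no replicate values, and the depth per library is unknown.

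The members and gene lists were chosen with earlier results of these data known. Named genes were the 10 with most gained, most lost, largest difference in each direction and most gained per 100 kb (at least 8 gained) by nearest gene end, and in each list 3 with the largest net gain and 2 with the largest net loss. Some genes these rules name are not reported here. Further genes named were chosen after their values were seen. Named regions were the 3 widest gained and lost peaks more than 1 kb from a gene end and 3 gained regions with most peaks. Alternatives changed list size, the overlap rule, merging, peak extent, stringency, position, chromosomes and gene assignment.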

Additional observations from a re-analysis of the deposited data

Results flagged for a closer look

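Each result here has 1 list per group, so the differences between groups were not tested. At 20 genes of the lists the net of gained minus lost regions within 50 kb was at least 3 in one direction from aNE to aNE_H and at least 3 in the other from pNE to pNE_H as deposited. The 8 given here were those where this also held at equal list size, so their direction at equal size follows from that choice. GATA3, UNC5A, RARA and ZNF703 were among those where it did not. The net in pNE to pNE_H exceeded that in aNE to aNE_H by 16 regions at HOXA3, 18 at HOXA4, 16 at HOXB2, 19 at HOXB3, 23 at HOXD3 and 23 at HOXD4. These HOX genes pair up within 3 clusters and share regions. Outside the clusters the difference was 11 at ROBO3, where aNE to aNE_H had 1 gained and 6 lost regions and pNE to pNE_H 7 and 1, and 12 at WLS, with 4 and 8 against 14 and 6.

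Peaks outside chromosomes 1 to 22 were not used above. On unplaced scaffolds and patches lay 5.59% of the aNE peaks and 4.68% of the aNE_H peaks. On chromosome X 2454 regions were gained, 1319 lost and 3944 kept, a ratio of gained to lost of 1.86 beside 1.87 on chromosomes 1 to 22.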

How the results depend on the processing

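With the widest 50% of each list there were 36219 gained, 19742 lost and 59273 kept regions, and where peaks had to cover 50% of a region 63362 were kept. The Jaccard index was 0.524 at equal size (all lists, or aNE_H alone reduced), 0.355 with 50% cover, 0.496 with aNE and aNE_H merged alone, 0.526 with 500 bp windows and 0.475 more than 1 kb from gene ends. Genes called higher numbered 5449 as deposited, 2034 at equal size and 3885 by nearest end, and those called lower 1513, 4125 and 682. Among the list members named by the rule for gene lists, the called net of 6 changed sign in their windows at equal size. It turned to -4 at GATA4, -1 at JAG1, -2 at NR6A1, -1 at NTN1, -2 at OTX2 and -6 at TCF7L2. Further list members not named by that rule turned as well, among them CDH4 from 13 to -2, UNC5B from 8 to -1 and CDON from 5 to -3. Among genes named by nearest end the net turned to -23 at NTM and -1 at LOC107986375, and in their windows that of TENM2 went from 17 to -4 and that of ADGRL2 from 12 to -1. By nearest end in place of windows the net turned to 6 at ZNF703, 7 at BMP4 and 4 at KDR. The balance of gains and losses changed with list size, since their difference follows from the number of regions open in each list. Why the lists differ in length was not tested, and the unknown depth limits what list lengths can show. Leaving out a replicate and a fit with a replicate block were not run. No paired analysis was possible because each group has 1 list with no value per replicate.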
